A study of Mus musculus with 19 samples.

Results

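The comparison described here sets 4 mammary tumours that lack integrin beta 1 (Itgb1 KO) against 5 tumours with intact integrin genes (WT). These 9 arrays were all those labelled with the 2 genotypes among the 19 arrays of the series. All tumours arose in NIC mice. Their transgene joins an activated ErbB2 receptor to Cre recombinase under the MMTV promoter, which is active in the mammary epithelium. Itgb1 KO tumours carried floxed Itgb1 on both alleles (NIC itgb1 fl/fl), and WT tumours carried the transgene alone, so Cre and ErbB2 were present in both groups. The other 10 arrays, 6 labelled DKO (both integrin genes) and 4 labelled Itgb3 KO, are used as a second pair of groups in which Itgb1 was deleted or left intact. RNA came from whole tumours frozen at end burden, so each profile also holds stroma, vessels and blood cells. Whether Cre acted in any of these cells is not given in the sources used here. In such bulk samples, fewer cells of a type and less RNA per cell cannot be told apart. The labels name tumours and not animals, so whether any tumours share an animal is not given. The p-values thus reflect only the spread among these tumours, which cannot be split into biological and technical parts.

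Integrins are receptors of 1 alpha and 1 beta subunit that hold a cell to the matrix around it and signal inward through focal adhesions. The beta 1 subunit pairs with more alpha subunits than any other beta subunit and gives the main receptors for collagen, laminin and fibronectin. In the mammary epithelium these receptors anchor cells to the basement membrane, and they are constantly taken up and returned to the surface through endosomes.

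Expression was measured on a whole-transcript Affymetrix array, and the deposited values are normalized log2 intensities. A difference of 1 on this scale is a change of 2-fold. For each gene with a probe set of its own the brightest one was used, and 14231 genes reached the median of the whole table (4.38) on at least 4 arrays. Array medians lay between 4.32 and 4.48. Pairs of Itgb1 KO arrays had correlations of 0.97 to 0.983, pairs of WT arrays 0.963 to 0.979, and pairs of 1 array from each group 0.964 to 0.98, so the arrays of a genotype were not more alike than arrays of the 2 genotypes by more than this spread. The luminal keratin gene Krt18 lay between 11.24 and 11.43 in Itgb1 KO tumours and between 10.98 and 11.66 in WT tumours, and the epithelial adhesion gene Epcam between 11.25 and 11.60 in Itgb1 KO tumours and between 11.22 and 11.52 in WT tumours. Skeletal muscle transcripts set single tumours apart: Acta1, the actin of skeletal muscle, was at 9.41 in Itgb1 KO replicate 1 and at 9.97 in WT replicate 2, and between 4.89 and 6.09 in the other 7 tumours. Among the other groups DKO replicate 2 (10.09), Itgb3 KO replicate 3 (9.17) and DKO replicate 4 (8.30) were high as well. The 4 arrays whose skeletal muscle list lay more than 1 above the WT mean (Itgb1 KO 1, WT 2, DKO 2 and Itgb3 KO 3) were left out in a further fit, and its values are given where calls changed. DKO replicate 4, with a list mean of 0.35, stayed in that fit.

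Itgb1 was the 1 gene that changed between the groups after adjustment over all genes, and it fell in Itgb1 KO tumours. Its log2 level was 8.39, 8.52, 8.98 and 8.91 in the 4 Itgb1 KO tumours, against 10.22, 9.83, 10.17, 10.32 and 10.26 in the 5 WT tumours. The 2 groups did not overlap, and the highest Itgb1 KO tumour lay well below the lowest WT tumour. The means were 8.70 ± 0.29 in Itgb1 KO tumours and 10.16 ± 0.19 in WT tumours (SD, n = 4 and n = 5), a difference of -1.46 (SE 0.212, 95% interval -1.90 to -1.02, limma adjusted p = 0.0217), or 2.75-fold lower. An exact two-sided permutation test over the 9 arrays gave p = 0.00794, the smallest these group sizes allow, and 0.0238 after adjustment over the 3 genes tested in this way. A single probe set measures Itgb1, and the sources used here do not give which of its exons the floxed allele removes.

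The second pair of groups shares no array with the first and showed the same gene lower. Itgb1 was at 8.01, 7.93, 8.50, 8.05, 9.20 and 8.25 in the 6 tumours labelled DKO, against 9.95, 9.81, 10.15 and 10.26 in the 4 Itgb3 KO tumours. Again no tumour of one group reached the other. The difference was -1.72 (limma adjusted p = 0.00055, exact two-sided permutation p = 0.00476, which no split of these arrays can go below), and the difference between the 2 Itgb1 effects had an unadjusted p of 0.382. The DKO label was not borne out for Itgb3: its level was 1.13 higher in tumours labelled DKO than in Itgb3 KO tumours (95% interval 0.62 to 1.64, limma adjusted p = 0.0223). The second pair therefore differs in measured Itgb3 as well as in Itgb1. Of all genes, 408 passed in this pair with all arrays and 24 without the 4 arrays with high muscle markers. Leaving out 1 array without high muscle markers could lower the count as well. It was 56 without Itgb3 KO replicate 1 and 66 without Itgb3 KO replicate 4, but 458 without DKO replicate 6. The part of muscle in the lost calls, against that of having fewer arrays, was not tested. Itgb1 still passed without the 4 arrays (-1.61, limma adjusted p = 0.0102) and Itgb3 did not (1.14, adjusted p = 0.1).

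Neither Itgb3 nor Erbb2 passed a test in Itgb1 KO against WT tumours. Itgb3, the beta subunit of the vitronectin receptor, was at 8.15, 8.98, 7.92 and 7.90 in Itgb1 KO tumours, against 8.09, 8.23, 7.72, 8.16 and 8.41 in WT tumours. Replicate 2 of the Itgb1 KO group was above all WT tumours and the other 3 lay within their range. The difference of 0.12 (SE 0.254, 95% interval -0.41 to 0.65, exact permutation p = 0.722) had the opposite sign without that replicate, at -0.13. Erbb2, the gene of the receptor that the transgene carries in activated form, was at 9.78, 9.90, 9.67 and 9.07 in Itgb1 KO tumours. It was at 9.47, 10.28, 9.85, 10.01 and 9.62 in WT tumours. The groups overlapped, and the difference was -0.24 (SE 0.191, 95% interval -0.64 to 0.16, exact permutation p = 0.349). A single probe set measures Erbb2, and the sources used here do not give whether it also reads the transgene.

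**Figure D1:**
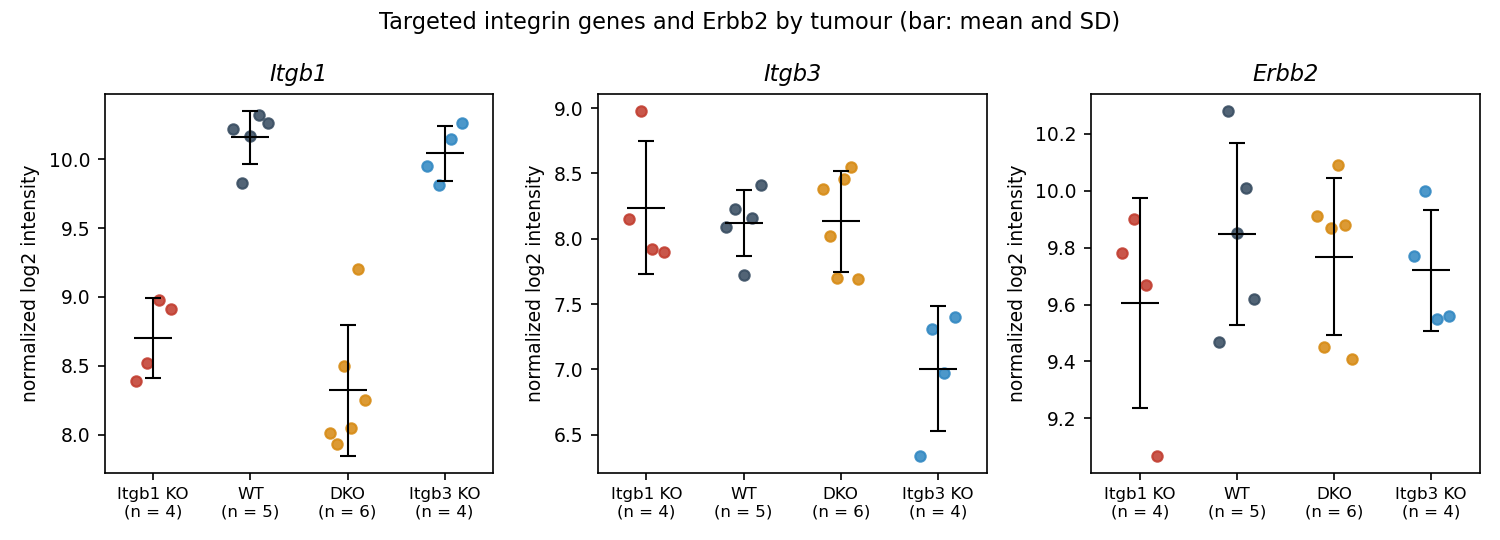
Normalized log2 intensity of Itgb1, Itgb3 and Erbb2 in each tumour of the 4 groups (points), with the group mean and SD (bars). Itgb1 lies between 8.39 and 8.98 in the 4 Itgb1 KO tumours and between 9.83 and 10.32 in the 5 WT tumours, while Itgb3 and Erbb2 overlap between these 2 groups.

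Other integrin subunits did not pass any threshold in Itgb1 KO tumours. All 8 beta subunits and 11 of 12 alpha subunits that pair with beta 1 were kept. Apart from Itgb1, none of them had an unadjusted p under 0.05 in limma, where 3.3% of all 14231 genes did on the higher side and 1.56% on the lower side. Itgb5, the beta subunit of another vitronectin receptor, was at 9.86, 9.97, 9.41 and 9.77 in Itgb1 KO tumours, against 8.89, 9.65, 9.63, 9.65 and 9.67 in WT tumours. Only WT replicate 1 stood apart, below the rest, and the difference was 0.26 (95% interval -0.14 to 0.66). The other beta subunits were at 0.23 for Itgb8, 0.14 for the leukocyte subunit Itgb2, 0.14 for Itgb6, 0.09 for Itgb4 (the laminin receptor subunit of hemidesmosomes) and -0.07 for Itgb7.

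Of the alpha partners, the collagen receptor subunit Itga2 had the largest difference, 0.36 (95% interval -0.04 to 0.77). Its levels were 5.44, 5.57, 4.81 and 5.31 in Itgb1 KO tumours, against 5.03, 4.64, 4.90, 4.92 and 5.12 in WT tumours. Itgb1 KO replicate 3 lay inside the WT range and the other 3 above it. At the other end was Itga1, also a collagen receptor subunit, at -0.34 (95% interval -0.84 to 0.16). The laminin receptor subunits Itga3 and Itga6 were at -0.26 and -0.05, and the fibronectin receptor subunit Itga5 was at 0.01. Itgav was at 0.21, Itga7 at 0.21, Itga11 at 0.16, Itga4 at 0.13, Itga9 at 0.03 and Itga8 at -0.04. The 11 alpha partners had a median difference of 0.03, against 0.0242 for all genes kept.

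Several of these subunits did differ between the tumours labelled DKO and Itgb3 KO tumours, where 2.38% of all genes passed an adjusted p of 0.05 on the higher side and 0.492% on the lower side. Itgb4 was 1.05 higher (95% interval 0.61 to 1.49, limma adjusted p = 0.0163) and Itga2 0.93 higher (95% interval 0.54 to 1.32, adjusted p = 0.0163) in tumours labelled DKO. Without the 4 arrays with high muscle markers neither passed, with Itgb4 at 1.02 (adjusted p = 0.0803) and Itga2 at 0.88 (adjusted p = 0.0826). With Itgb3 and Itgb1 these were the integrin genes of the 2 lists that passed there. For Itgb4 the interval in Itgb1 KO against WT was -0.36 to 0.55, which ends below the lower bound of the other interval. The test of the difference between the 2 comparisons gave an unadjusted p of 0.0054 for Itgb4 (adjusted p = 0.237). It called 0 genes over the whole table after adjustment, with 1777 genes at an unadjusted p under 0.05 (12.5%) and a smallest adjusted p of 0.0963.

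**Figure D2:**
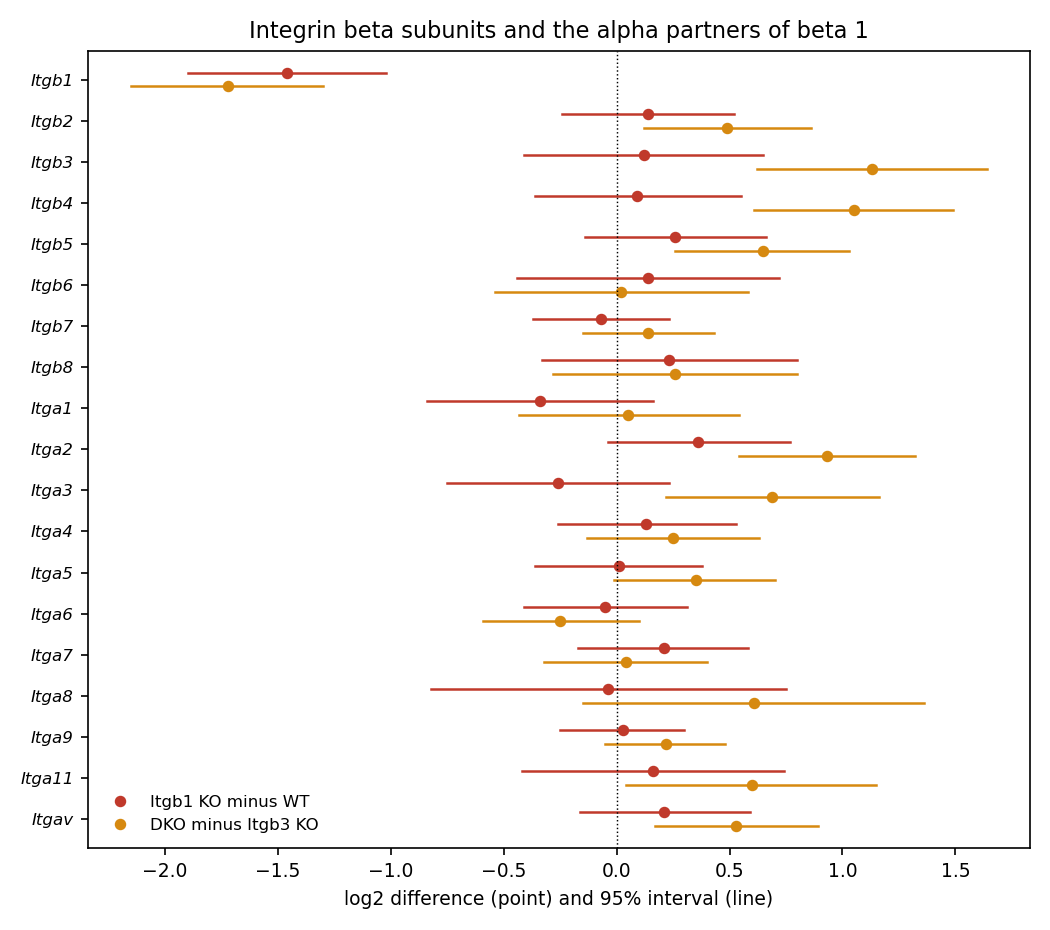
Log2 difference (points) with its 95% interval (lines) for the integrin beta subunits and the alpha partners of beta 1, in Itgb1 KO minus WT and in DKO minus Itgb3 KO. In Itgb1 KO minus WT only the interval of Itgb1 (-1.90 to -1.02) excludes 0. In DKO minus Itgb3 KO it is excluded for Itgb1, Itgb2, Itgb3, Itgb4, Itgb5, Itga2, Itga3, Itga11 and Itgav, of which Itgb1, Itgb3, Itgb4 and Itga2 passed after adjustment with all arrays.

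Over the whole table the 2 groups differed by little. After adjustment 1 of 14231 genes passed (0.00703%), and at an unadjusted p under 0.05 there were 469 higher genes (3.3%) and 222 lower genes (1.56%), together 4.86% of the genes. Quantile normalization moved that split to 379 higher and 281 lower genes, and with no intensity filter there were 593 higher and 579 lower genes, so the excess on the higher side depends on the scaling and on the filter. The 95% interval lay within a 2-fold change in either direction for 13262 genes (93.2%), and the median SE was 0.161. In 104 genes all 4 Itgb1 KO tumours lay above all 5 WT tumours (0.731%), and in 64 genes all lay below (0.45%). Of the 126 ways to split these 9 arrays, 1 gives each of these patterns, a share of 0.00794. Neither observed share was above it, and the 4.86% at an unadjusted p under 0.05 was not above that threshold. The probe sets without exactly 1 gene symbol gave 0 calls among 7782 tested, with 375 at an unadjusted p under 0.05 in limma and a smallest adjusted p of 0.812.

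**Figure D3:**
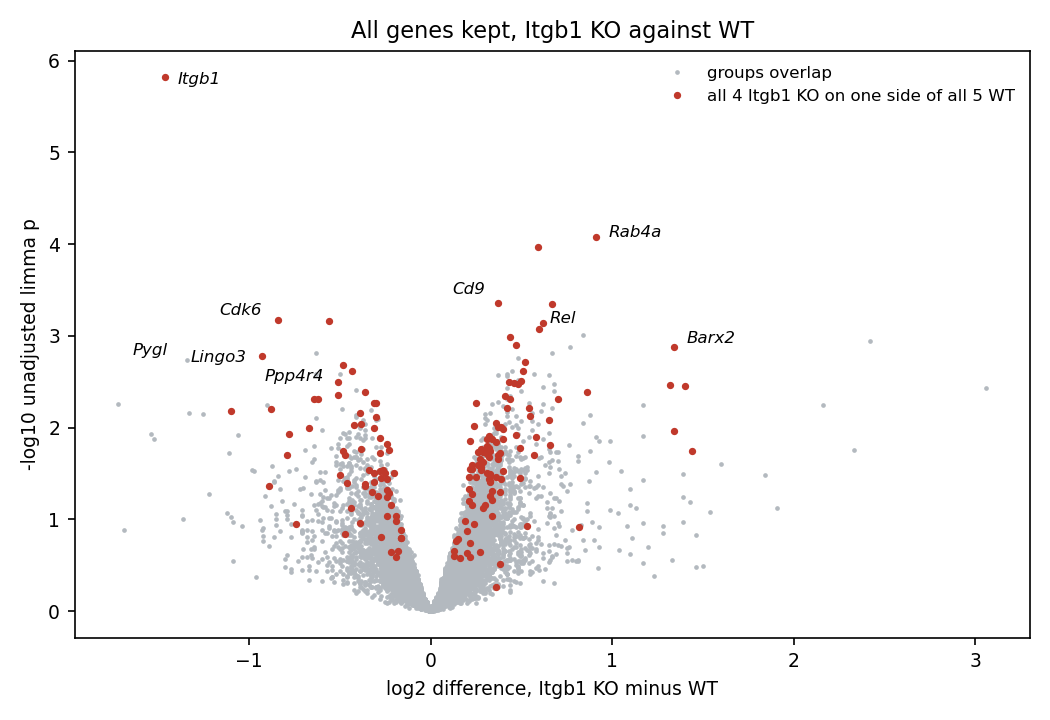
Log2 difference between Itgb1 KO and WT tumours (horizontal axis) and the -log10 of the unadjusted limma p (vertical axis) for the 14231 genes kept. Each point is a gene, and those whose 4 Itgb1 KO tumours all lie on one side of all 5 WT tumours are in red. Itgb1 stands alone at the top, followed by Rab4a at a difference of 0.91. Of the labelled genes on the lower side, Cdk6, at -0.84, comes next after Itgb1. The largest difference, 3.06 for Vsnl1, belongs to a gene whose groups overlap.

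The genes named next had the smallest p among those whose groups do not overlap. They were chosen by that rule, so their differences from WT are a description, and none of them but Itgb1 passed after adjustment. Rab4a, a small GTPase of the fast recycling of endosomes to the cell surface, came first. Its level was 6.47, 6.11, 6.23 and 6.59 in Itgb1 KO tumours, against 5.54, 5.38, 5.73, 5.41 and 5.12 in WT tumours. All 4 Itgb1 KO tumours lay above all WT tumours, with a difference of 0.91 (SE 0.183, 95% interval 0.53 to 1.30, limma adjusted p = 0.512). In the second pair of groups it did not differ by more than the spread, at 0.12 (95% interval -0.25 to 0.48).

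The other genes on the higher side came from several processes. Cd9 encodes a tetraspanin that binds beta 1 integrins at the surface. It was at 10.91, 10.81, 10.96 and 10.81 in Itgb1 KO tumours, against 10.56, 10.48, 10.63, 10.45 and 10.41 in WT tumours. This is a small and even gap, with a difference of 0.37 (SE 0.0862, adjusted p = 0.982). Averaging it with the second probe set of Cd9 gave a difference of 0.11, so the second probe set differed in the opposite direction. Rel, a transcription factor subunit of the NF-kappaB family, was at 6.99, 7.31, 7.29 and 7.09 in Itgb1 KO tumours, against 6.69, 6.50, 6.34, 6.65 and 6.66 in WT tumours. The Itgb1 KO tumours lay close together above the WT tumours, at a difference of 0.60 (SE 0.151).

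Barx2, a homeobox gene, had the widest gap of means among the 12 genes named on the higher side. Its level was 7.30, 7.17, 7.90 and 7.43 in Itgb1 KO tumours, against 6.38, 4.56, 6.91, 5.71 and 6.95 in WT tumours. The difference was 1.34 (SE 0.356), and WT replicates 2 and 4 were the lowest tumours. Without the 4 arrays with high muscle markers the difference was 1.01. Cox20, an assembly factor of cytochrome oxidase, differed by 0.67, Zfp329, a zinc finger gene, by 0.62 and Tram1, a membrane protein of protein translocation into the endoplasmic reticulum, by 0.52. Klc3, a kinesin light chain gene, differed by 0.51, Acbd5, a peroxisomal membrane protein gene, by 0.44 and Yipf6, a Golgi membrane protein gene, by 0.43. Cyp7b1, an oxysterol hydroxylase gene (0.50), and Tas1r1, a taste receptor gene (0.47), were close to the intensity filter. All 5 WT tumours lay under it for Cyp7b1 and 4 of them for Tas1r1.

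On the lower side Cdk6, a cyclin-dependent kinase of the G1 phase, followed Itgb1. It was at 6.33, 6.60, 6.49 and 6.35 in Itgb1 KO tumours, against 7.30, 7.58, 6.85, 7.14 and 7.52 in WT tumours. Every Itgb1 KO tumour lay below every WT tumour, at a difference of -0.84 (SE 0.205, 95% interval -1.27 to -0.41, limma adjusted p = 0.982). In the second pair of groups the difference was -0.01 (95% interval -0.42 to 0.40). Pag1, an adaptor that brings the kinase Csk to Src family kinases, was at 5.53, 4.96, 5.37 and 5.27 in Itgb1 KO tumours, against 5.71, 5.85, 5.79, 5.80 and 6.08 in WT tumours. Its WT values were tightly grouped and its difference was -0.56 (SE 0.139), against 0.08 in the second pair.

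Lingo3, a leucine-rich repeat membrane protein gene, differed by -0.93, Acad10, an acyl-CoA dehydrogenase gene, by -0.64 and Sgms2, a sphingomyelin synthase gene, by -0.62. Sipa1, which encodes a GTPase activating protein of Rap1, a GTPase that activates integrins, was at 7.63, 7.86, 8.01 and 7.85 in Itgb1 KO tumours, against 8.13, 8.53, 8.03, 8.80 and 8.23 in WT tumours. The highest Itgb1 KO tumour and the lowest WT tumour almost met, and the difference was -0.51 (SE 0.15). Slc22a21, a carnitine transporter gene, was at -0.51, with its Itgb1 KO tumours between 4.37 and 4.53, close to the filter. Pfkl, the liver type of phosphofructokinase, was at -0.43 and Trak1, an adaptor for the transport of mitochondria, at -0.36. Ppp2r5d, a regulatory subunit of protein phosphatase 2A, was at -0.30. Ppp4r4, a regulatory subunit of protein phosphatase 4, was at 4.16, 4.27, 4.13 and 4.10 in Itgb1 KO tumours, against 4.64, 4.71, 4.30, 4.88 and 4.70 in WT tumours. All 4 Itgb1 KO values lay under the filter of 4.38, and with values raised to the filter the difference of -0.48 became -0.28.

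Most of these genes did not show the same difference between tumours labelled DKO and Itgb3 KO tumours. Of the 12 genes on the higher side, 8 were above 0 in DKO minus Itgb3 KO and 0 passed an adjusted p of 0.05, with a median of 0.04, against 0.52 in the comparison that chose them. Over all genes higher in Itgb1 KO tumours, 55.5% were above 0 in the second pair. The 11 genes on the lower side other than Itgb1 had a median of -0.01 in the second pair, against -0.51, and 6 were below 0 there, where 46.2% of all genes lower in Itgb1 KO tumours were. Ppp4r4 was lower in both (-0.56, limma adjusted p = 0.0305 in the second pair), whereas Ppp2r5d was higher in tumours labelled DKO (0.36, adjusted p = 0.0422). Neither passed without the 4 arrays with high muscle markers, with Ppp4r4 at -0.46 (adjusted p = 0.152) and Ppp2r5d at 0.36 (adjusted p = 0.13). Rel had the same sign in both pairs, at 0.34 in the second (95% interval 0.04 to 0.65, adjusted p = 0.187). The choice of genes by their difference in the first pair by itself makes smaller values in the second pair likely.

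**Figure D4:**
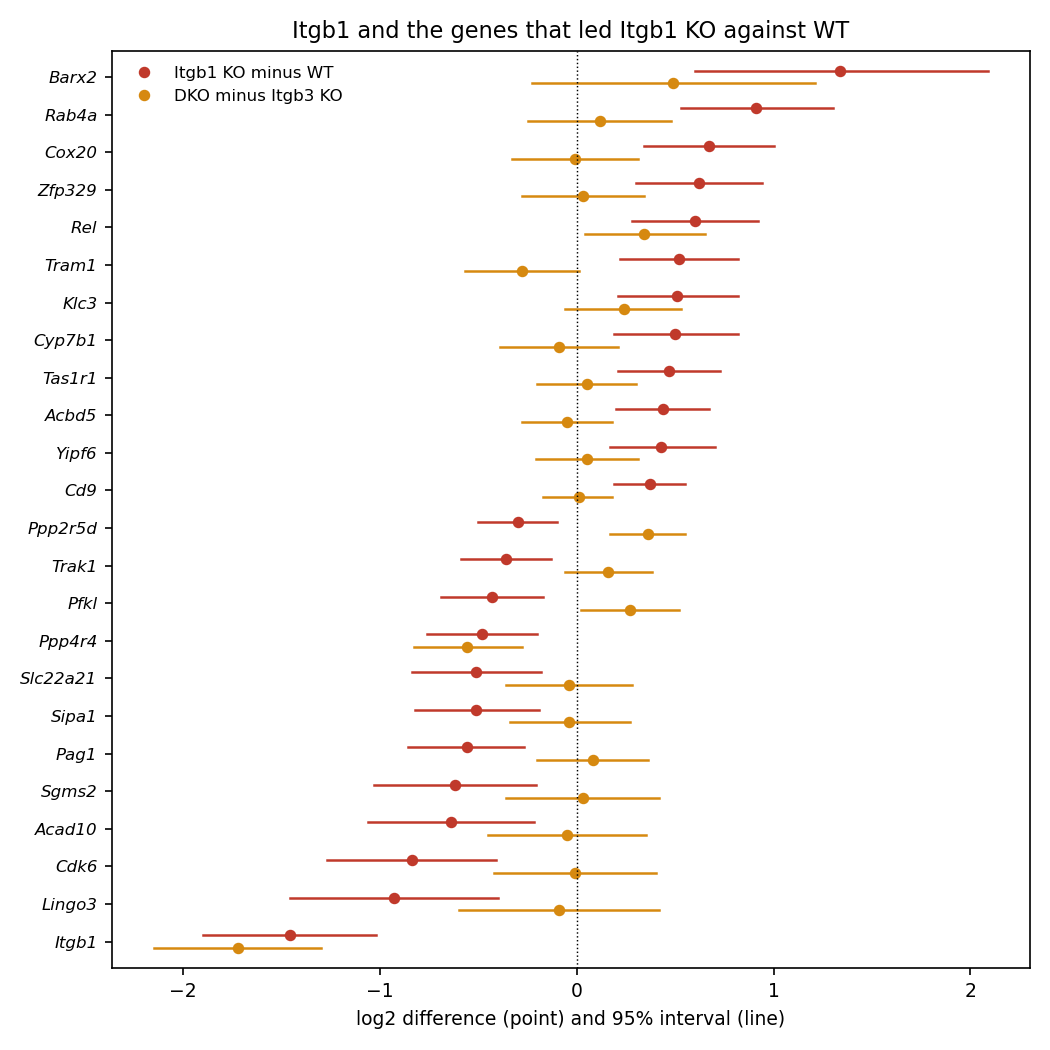
Log2 difference (points) with its 95% interval (lines) in Itgb1 KO minus WT and in DKO minus Itgb3 KO for Itgb1 and the 23 genes with the smallest p among those whose groups do not overlap. Itgb1 and Ppp4r4 lie below 0 in both comparisons with similar sizes, whereas Rab4a (0.91 and 0.12) and Cdk6 (-0.84 and -0.01) do not. Many values of Ppp4r4 lie under the intensity filter.

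Counting every gene whose groups do not overlap gives the same picture. In DKO against Itgb3 KO such genes were 5.88% of the table on the higher side and 3.07% on the lower side. Non-overlapping groups in both pairs with the same direction were found for 6 of the 104 higher genes (Dock4, Hook3, Olfm1, Phc3, Sardh and Sem1). They were found for 2 of the 64 lower genes (Itgb1 and Ppp4r4), and with opposite directions for 5 genes. Both shares with the same direction were close to those of all genes in the second pair, 5.88% and 3.07%. All these genes but Itgb1 were picked by their values in both pairs, so their adjusted p is a description. Of the higher genes, Dock4, an activator of Rac and Rap GTPases, was at 0.33 in Itgb1 KO tumours and 0.65 in the second pair (limma adjusted p = 0.0253), and Hook3, an adaptor of dynein, at 0.23 and 0.41 (adjusted p = 0.0424). Olfm1 was at 0.39 and 0.70 (adjusted p = 0.032), Phc3, a polycomb protein gene, at 0.28 and 0.46 (adjusted p = 0.0311), and Sardh, the sarcosine dehydrogenase gene, at 0.34 and 0.89 (adjusted p = 0.0182). Sem1 (0.25 and 0.15) did not pass in the second pair, and none of the 6 passed in Itgb1 KO against WT, where each had an adjusted p of 0.982. Without the 4 arrays with high muscle markers none of them passed in the second pair either, and the adjusted p was 0.0748 for Olfm1, 0.0803 for Dock4, 0.094 for Hook3 and Phc3, 0.0832 for Sardh and 0.443 for Sem1, with the same signs. Tram1 and Cdkal1 were higher in Itgb1 KO tumours (0.52 and 0.26) and lower in tumours labelled DKO (-0.28 and -0.37), and for Mesp2 the values were 0.32 and -0.31. Unk was at -0.27 and 0.55.

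Genes that act with integrins inside the cell were described as lists. Of 28 genes of integrin endocytosis and recycling kept, 3 had an unadjusted p under 0.05 on the higher side and 0 on the lower side, where 3.3% and 1.56% of all genes did, with a median difference of 0.01. Beside Rab4a these were Ap2a1, a subunit of the clathrin adaptor AP2 (0.37), and Clic3, a chloride channel protein of late endosomes (0.39). Ap2a1 was at 7.76, 7.80, 7.86 and 7.87 in Itgb1 KO tumours, against 7.71, 7.59, 7.65, 7.07 and 7.26 in WT tumours, so its groups did not overlap either, by a narrow margin. Of 31 focal adhesion genes, 0 were higher and 2 lower at this level (3.3% and 1.56% of all genes), with 12 above 0 and a median of -0.04.

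These 2 were Pxn and Git1. Pxn encodes paxillin, a scaffold of focal adhesions, and was at 7.25, 7.08, 7.07 and 7.20 in Itgb1 KO tumours, against 7.29, 7.90, 7.27, 7.51 and 7.71 in WT tumours. Its groups just failed to overlap, with a difference of -0.39 (SE 0.128, limma adjusted p = 0.982). Git1, a GTPase activating protein that binds paxillin, was at -0.37 with overlapping groups. The talin gene Tln1, whose product links the beta subunit to actin, was at -0.19 (95% interval -0.58 to 0.20). In DKO minus Itgb3 KO, 28 of the 31 focal adhesion genes were above 0 with a median of 0.31, and 0 passed.

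Of 13 tetraspanin genes, 1 was higher (Cd9, by its brighter probe set only) and 1 lower (Tspan33, -0.50) at an unadjusted p under 0.05. Of all genes 3.3% and 1.56% were, and the list had a median of 0.16. That median was 0.08 without Itgb1 KO replicate 1 and 0.05 without the 4 arrays with high muscle markers. The integrin-binding tetraspanin Cd151 was at 0.24 (95% interval -0.12 to 0.60). Among 15 matrix receptors of other families none reached this level, and the syndecan gene Sdc3 was at 0.41 with an interval from -0.44 to 1.27.

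Matrix genes did not pass either. Of 8 laminin chains kept, 1 was higher and 0 lower at an unadjusted p under 0.05 (3.3% and 1.56% of all genes), with a median of 0.04. The higher one was Lamb3, the beta chain of an epithelial laminin (0.43, limma adjusted p = 0.982). It was at 5.07, 5.31, 5.30 and 5.71 in Itgb1 KO tumours, against 4.90, 4.78, 5.45, 4.63 and 4.82 in WT tumours. WT replicate 3 lay among the Itgb1 KO tumours, and the other 4 below them. The fibronectin gene Fn1 was at 0.30 (95% interval -0.84 to 1.44), and 12 genes of collagen IV and the basement membrane had a median of 0.04. For 23 interstitial collagens and related genes the median was 0.22, with 19 above 0 and 0 at an unadjusted p under 0.05 in limma.

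Fibroblasts make most of these matrix proteins, and 6 of the 16 fibroblast markers (Col1a1, Col1a2, Col3a1, Dcn, Fbln1 and Lum) are themselves in that list. All 16 were above 0, with a median of 0.35, which was also the median of the 10 that the matrix list does not hold. The 17 matrix genes that are not among the markers had a median of 0.21, with 13 above 0. All genes had a median of 0.0242, and 0 of the 16 markers had an unadjusted p under 0.05 in either direction in limma. Their mean relative to WT was 0.67, 0.32, 0.02 and 0.62 in the 4 Itgb1 KO tumours, against -0.30, -0.10, -0.29, 0.64 and 0.05 in the WT tumours. WT replicate 4 was as high as the highest Itgb1 KO tumours, and Itgb1 KO replicate 3 lay within the WT range. Fap, a protease of activated fibroblasts, was at 0.47, the collagen cross-linking gene Loxl1 at 0.58 and the growth factor receptor Pdgfra at 0.33, all with intervals that include 0. Adipocyte markers were all above 0 too (9 of 9, median 0.25). Of the 9, 1 was higher at an unadjusted p under 0.05 (3.3% of all genes), the lipid droplet gene Cidec (0.87, 95% interval 0.05 to 1.69). The part of either cell type in the matrix list was not tested.

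Markers of other cell types showed smaller medians. The median was 0.14 for 16 macrophage genes, 0.03 for 17 endothelial genes, -0.02 for 13 pericyte and smooth muscle genes, 0.05 for 9 T and NK cell genes, 0.13 for 5 B and plasma cell genes, -0.03 for 11 dendritic cell and MHC class II genes and 0 for 5 neutrophil genes. Of these, 1 gene had an unadjusted p under 0.05, on the higher side, where 3.3% of all genes did, and 1.56% on the lower side. It was the angiopoietin receptor gene Tek (0.57, 95% interval 0.01 to 1.12). The skeletal muscle list had a mean of 1.5 in Itgb1 KO replicate 1 and 2.07 in WT replicate 2, and of -0.64 to -0.36 in the other 7 tumours. The single red blood cell marker kept, Slc4a1, was at -0.21.

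Markers of the epithelium itself were spread around 0. The 16 luminal genes had a median of 0 and the 12 basal and myoepithelial genes one of -0.04. Foxa1, a luminal transcription factor gene, was at 4.19, 4.15, 5.27 and 5.32 in Itgb1 KO tumours, against 3.83, 3.84, 4.52, 4.21 and 4.52 in WT tumours. Its difference of 0.55 (unadjusted p = 0.038 in limma) came from replicates 3 and 4, and many of these values lie under the filter. Milk protein and secretory genes had a median of 0.28, with 13 of 15 above 0. Their mean was -0.50 in Itgb1 KO replicate 1 and 0.53 to 0.80 in the other 3 Itgb1 KO tumours, against -0.26 to 0.24 in WT tumours, so 1 tumour went against the rest. Without that tumour the median of the list was 0.57. Muc15, a mucin of the milk fat globule membrane, was at 9.15, 10.84, 10.13 and 10.82 in Itgb1 KO tumours, against 8.59, 9.45, 9.84, 9.01 and 9.38 in WT tumours. Only replicate 1 of the Itgb1 KO group fell inside the WT range, and the difference was 0.98 (unadjusted p = 0.0239).

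Cell cycle genes pointed both ways. Of 21 G1 cyclins, kinases and inhibitors, 4 were higher and 1 lower at an unadjusted p under 0.05 in limma (3.3% and 1.56% of all genes), with a median of 0.17. With 1 array left out the median lay between 0.04 (without WT replicate 3) and 0.15. The lower one was Cdk6. The higher ones were Ccne1, the cyclin E1 gene (0.42), Rbl2, a pocket protein related to Rb (0.33), and 2 inhibitors of the Cdk4 and Cdk6 kinases, Cdkn2d (0.43) and Cdkn2c (0.59). Ccne1 was at 5.79, 5.49, 5.62 and 5.88 in Itgb1 KO tumours, against 5.51, 5.18, 5.20, 4.96 and 5.50 in WT tumours, so that its groups met at one tumour. Of 28 S phase and mitosis genes, 24 were above 0 with a median of 0.18, which was 0.03 without WT replicate 3, and 0 had an unadjusted p under 0.05. Their mean ran from -0.10 to 0.40 in Itgb1 KO tumours and from -0.39 to 0.59 in WT tumours. Mki67, the proliferation marker, was at 0.44 (95% interval -0.13 to 1.00), and in DKO minus Itgb3 KO only 10 of the 28 genes were above 0.

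Signalling lists stayed near the median of all genes. Medians were -0.02 for 17 genes of ErbB receptors and ligands, 0.07 for 22 of the insulin, IGF and PI3K pathway, 0.06 for 17 of Ras and MAPK feedback, 0.01 for 20 of the NF-kappaB pathway and -0.03 for 19 Hippo pathway and YAP/TAZ target genes. They were 0.07 for 26 TGF-beta and BMP genes and 0.05 for 22 Wnt genes. Lrig1, a negative regulator of ErbB receptors, was at -0.41 (unadjusted p = 0.0424) and the ErbB ligand gene Hbegf at -0.66 (unadjusted p = 0.0523) in limma. Lrig1 was at 7.80, 6.90, 8.05 and 8.06 in Itgb1 KO tumours, against 7.93, 8.21, 8.24, 8.26 and 7.94 in WT tumours. Replicate 2 of the Itgb1 KO group was far lower than the rest. In the second pair Lrig1 was 0.50 higher in tumours labelled DKO, and did not pass (adjusted p = 0.127).

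Within the ErbB list 1 gene was higher at an unadjusted p under 0.05, where 3.3% of all genes were. It was the receptor gene Erbb4, which acts in lactational differentiation of the mammary gland. Its level was 6.90, 7.22, 7.49 and 7.34 in Itgb1 KO tumours, against 7.02, 6.77, 6.43, 5.87 and 5.71 in WT tumours. The lowest Itgb1 KO tumour lay just under the highest WT tumour, and the other 3 above all WT tumours. The difference was 0.88 (SE 0.292, 95% interval 0.27 to 1.49, limma adjusted p = 0.982). The second pair had the opposite sign, with 5.57, 5.50, 6.38, 5.54, 6.91 and 6.09 in tumours labelled DKO, against 6.82, 7.50, 7.11 and 6.94 in Itgb3 KO tumours. There Erbb4 fell by 1.09 (95% interval -1.68 to -0.50, limma adjusted p = 0.0431). Without the 4 arrays with high muscle markers it did not pass (-0.99, adjusted p = 0.146). The difference between the 2 comparisons had an unadjusted p of 0.000113 and an adjusted p of 0.0963. Egfr was at 0.11 and Erbb3 at -0.20 in Itgb1 KO minus WT, both with intervals that include 0. On the lower side of the other signalling lists, at an unadjusted p under 0.05, were Map2k2, a MAP kinase kinase gene (-0.39), and Igfbp3, an IGF binding protein gene (-0.50). On their higher side were Rel (0.60) and Id2 of the TGF-beta and BMP list (0.31, unadjusted p = 0.0249 in limma). In the second pair Id2 had the opposite sign (-0.47, limma adjusted p = 0.0466 with all arrays).

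Glycolysis and hypoxia genes and interferon genes lay mostly below 0, without passing. Of 24 glycolysis and hypoxia genes kept, 2 were above 0 and the median was -0.23. Of the 24, 1 (Pfkl) was lower at an unadjusted p under 0.05 in limma, where 1.56% of all genes were. The mean of the list was 0.18, -0.32, -0.61 and -0.24 in Itgb1 KO tumours, against 0.05, -0.09, -0.67, 0.31 and 0.40 in WT tumours. The groups overlapped fully, with the lowest tumour in the WT group. Pygl, the liver glycogen phosphorylase that releases glucose units from glycogen, was at 5.98, 6.82, 5.98 and 5.98 in Itgb1 KO tumours, against 7.67, 7.52, 6.56, 8.73 and 7.17 in WT tumours. WT replicate 3 lay below Itgb1 KO replicate 2, and the difference was -1.34 (SE 0.369, 95% interval -2.11 to -0.57, limma adjusted p = 0.982). In the second pair Pygl was at -1.07 (95% interval -1.81 to -0.33, adjusted p = 0.0973). The 17 glycogen genes together had a median of -0.05, with 7 above 0. Fatty acid and sterol synthesis genes went the other way, with 10 of 14 above 0 and a median of 0.13.

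Interferon response genes had a median of -0.33, with 1 of 23 above 0 and 0 at an unadjusted p under 0.05 in limma. Their mean was -1.34, 0.49, -0.53 and -0.18 in Itgb1 KO tumours, against -1.09, 0.93, 0.49, -0.36 and 0.03 in WT tumours. The direction of the median depended on the arrays included. It was 0.10 without the 4 arrays with high muscle markers, and between -0.62 (without WT replicate 1 or Itgb1 KO replicate 2) and -0.11 (without Itgb1 KO replicate 1) with 1 array left out. Both groups spanned a range far wider than the difference between them. In the second pair the median was -1.20, with 0 of 23 above 0. There 1 gene passed on the lower side, where 0.492% of all genes did, Rtp4 (-1.70, limma adjusted p = 0.0424). Without the 4 arrays Rtp4 was at -1.58 and did not pass (adjusted p = 0.13).

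**Figure D5:**
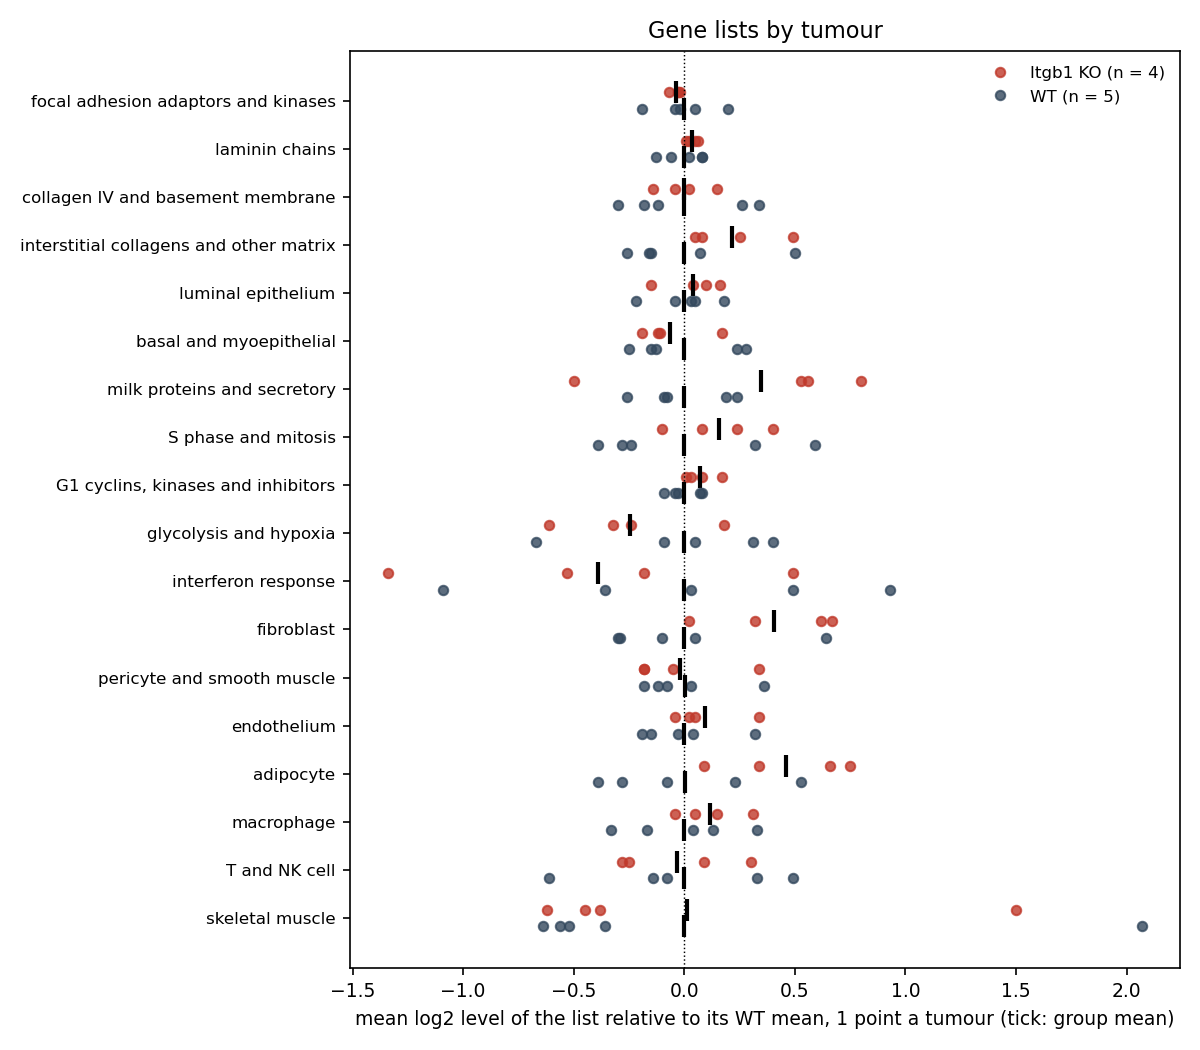
Mean log2 level of 18 gene lists relative to their WT mean, 1 point for each Itgb1 KO tumour (red) and WT tumour (grey), with the group mean as a tick. The 2 groups overlap in all 18 lists shown, and the skeletal muscle list separates 1 tumour of each group (1.5 in Itgb1 KO and 2.07 in WT) from the rest.

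The call on Itgb1 depended on single arrays. Its difference lay between -1.55 and -1.36 when each of the 19 arrays was left out in turn, but its limma adjusted p then rose to as much as 0.182. It no longer passed without WT replicate 1, 3, 4 or 5, without Itgb1 KO replicate 1, 2 or 4, or without the 4 arrays with high muscle markers (-1.44, adjusted p = 0.155). In that last fit 1 gene passed, Fam189b (-1.55, adjusted p = 0.0262). With all arrays Fam189b was at 7.27, 5.28, 4.72 and 5.26 in Itgb1 KO tumours, against 6.28, 5.14, 6.97, 6.49 and 6.81 in WT tumours. Of the arrays left out, the one from the Itgb1 KO group was the highest of that group and the one from the WT group the lowest of its own, and with them the difference was -0.71 (limma adjusted p = 0.982). The 12 genes on the higher side and the 11 on the lower side kept their direction without the 4 arrays, with Rab4a at 0.86 and Cdk6 at -0.72.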

How the data were processed

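The authors deposited 1 table of normalized log2 intensities for 41345 probe sets on 19 arrays. Affymetrix Expression Console was the tool named for normalization, per the submitters' processing notes, with version and settings not given in the sources used here. Values ran from 0.542 to 13.7 and were not normalized again. Probe sets with exactly 1 gene symbol (23521) were used, and 1814 with several and 16010 with none were tested apart. Where a gene had several, the brightest by its mean over the 19 arrays was taken, and genes at or above the table's median (4.38) on 4 arrays were kept. One limma 3.58.1 fit (R 4.3.3, lmFit and eBayes, 15 residual degrees of freedom) held 1 mean per group, with no batch, since none is given. All tests were two-sided, with p-values adjusted by Benjamini-Hochberg over 14231 genes and a threshold of 0.05. The number of arrays limits the precision.

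The named genes are those past the threshold, then up to 12 per direction with the smallest p among genes with non-overlapping groups, Itgb1, Itgb3, Erbb2, all integrin beta subunits and the alpha partners of beta 1, and up to 3 genes per list by p in the direction of its median. Entries that are predicted genes, cDNA clones, small RNAs, olfactory receptors or antigen receptor segments are counted only. Krt18, Epcam, Acta1, Tln1, Cd151, Tspan33, Fn1, Fam189b, Vsnl1, Rbl2, Rtp4, Erbb4, Egfr, Erbb3, Map2k2, Igfbp3 and genes whose groups do not overlap in both pairs were named after their values were seen. The comparison and the gene lists were chosen with earlier results of these data known. Alternatives changed the arrays fitted, the filter, the probe set rule, the scaling, array weights, moderation, dim values and each array in turn.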

Additional observations from a re-analysis of the deposited data

Results flagged for a closer look

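In 168 groups of 4 or 5 tumours (levels of named genes and means of lists), 8 had 1 tumour far from the others, where chance gives 8.4 (1 in 20). Skeletal muscle markers had a mean of 1.5 in Itgb1 KO replicate 1, next to -0.38, and of 2.07 in WT replicate 2, next to -0.36. Itgb1 KO replicate 1 also stood above its group for the Wnt list (0.2, next -0.06), the apoptosis and survival list (0.19, next 0.05) and Zfp329 (7.12, next 6.45). The fatty acid and sterol synthesis list was at 0.53 in Itgb1 KO replicate 4, next to 0.03, and the tetraspanin list at -0.03 in Itgb1 KO replicate 3, next to 0.09. Itgb5 was at 8.89 in WT replicate 1, next to 9.63.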

How the results depend on the processing

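Array weights left 0 genes past the threshold, with Itgb1 at -1.4 (limma adjusted p = 0.068). Leaving out each array in turn gave 0 to 1 genes and -1.55 to -1.36 for Itgb1; the arrays with high muscle markers were left out in a setting chosen after seeing the data (-1.44, adjusted p = 0.155). Genes at an unadjusted p under 0.05 numbered 311 on the higher side with only the 9 arrays compared, and 579 on the lower side with no filter, with 183 to 363 when 1 array was left out (363 without WT replicate 3). For DKO against Itgb3 KO the 408 calls became 1226 with arrays centred on their medians, which moved the median of all genes to 0.143 from 0.032 (95.7% of calls higher, 82.8% as deposited), 231 with quantile normalization, 1568 with array weights and 24 without the 4 arrays with high muscle markers; with 1 array left out there were 56 to 458, the lowest without Itgb3 KO replicate 1. That count therefore rests on single arrays. The difference of the 2 comparisons gave 3 genes with array weights, and 0 to 5 with 1 array left out (5 without WT replicate 2). Itgb3 turned to -0.02 with array weights and ranged from -0.13 to 0.23 with 1 array left out. The remaining 23 leading genes and Erbb2 kept their direction in every setting run. The causes were not tested. No paired analysis was possible because replicate numbers were given in accession order.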

Other observations

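The kept genes were placed in the order of RefSeq GRCm38.p6, after their values were seen, to look at the neighbours of the deleted gene. Itgb1 and Rab4a lie on chromosome 8, with 34 kept genes between them. A window of up to 50 kept genes on each side of Itgb1 held 51 genes, 50 before it and 1 after it. Of these, 5 were higher in Itgb1 KO tumours at an unadjusted p under 0.05 in limma (9.8%, against 3.3% of all genes). In the same window 1 was lower, and none passed after adjustment. The 5 include Rab4a, which already led the list of genes. The higher ones were Rab4a (0.91), Agt, the angiotensinogen gene (1.17), Abcb10 (0.68), Exoc8, a subunit of the exocyst (0.47), and Cog2 (0.31), and the lower one was Capn9 (-0.51). In tumours labelled DKO minus Itgb3 KO these 6 were at 0.12, 0.57, 0.43, 0.17, 0.16 and -0.51, and none passed after adjustment.

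Over the whole genome, 1 pair of neighbouring kept genes had non-overlapping groups in the same direction, Nhlrc3 and Proser1 on chromosome 3. Proser1 was at 10.94, 10.74, 11.17 and 10.89 in Itgb1 KO tumours, against 9.82, 10.18, 9.43, 9.34 and 8.94 in WT tumours, and Nhlrc3 at 8.88, 8.54, 9.08 and 8.66 in Itgb1 KO tumours, against 7.11, 7.62, 7.82, 7.59 and 7.22 in WT tumours. Their differences were 1.40 (SE 0.419) and 1.32 (SE 0.394), both with a limma adjusted p of 0.982. In the other groups both genes were high in some tumours and low in others. Proser1 was at 9.38, 9.69, 10.68, 9.21, 10.83 and 11.46 in tumours labelled DKO and at 9.22, 10.35, 10.49 and 8.86 in Itgb3 KO tumours, and Nhlrc3 was high in the same tumours, at 7.37, 7.35, 8.71, 7.10, 8.86 and 9.06 in tumours labelled DKO and 7.18, 8.33, 8.59 and 7.10 in Itgb3 KO tumours.

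Vsnl1, a neuronal calcium sensor gene, had the largest difference of all kept genes, 3.06 (SE 0.923, limma adjusted p = 0.982), and was picked for that. It was at 4.54, 8.32, 7.16 and 8.97 in Itgb1 KO tumours, against 3.82, 4.29, 4.39, 4.59 and 3.82 in WT tumours. In all, 3 of the 4 Itgb1 KO tumours stood apart from every WT tumour, and replicate 1 did not. It differed by 0.54 in the second pair of groups.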
